A study of Mus musculus with 15 samples.

Results

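The 8 genes described here belong to the neurotrophin and GDNF (glial cell line-derived neurotrophic factor) systems and were followed through the conversion of mouse embryonic fibroblasts (MEFs) by Ngn1 or Ngn3, whose gene symbols are Neurog1 and Neurog3. The members were taken by name: the Trk receptors Ntrk2 and Ntrk3, the shared neurotrophin receptor Ngfr, the kinase Ret, its co-receptors Gfra1, Gfra2 and Gfra3, and the ligand Bdnf. They make 8 of the 43432 genes in the count table, and all 8 passed the filter on low counts, as did 16872 genes in all.

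The libraries were made from polyA RNA of MEFs carrying lentiviruses that express Ngn1 or Ngn3 under doxycycline, which was given from day 0. Neuronal medium (DMEM/F12 with GlutaMAX, N2 and B27) replaced the serum medium on day 2. The groups were Neurog1 day 13, Neurog3 day 13, Neurog1 day 1, Neurog3 day 1 and Control, with 3 libraries each, lettered a, b and c. Control libraries are labelled only as control MEFs, so what virus, doxycycline or medium they received, and for how long, is not given in the sources used here. The libraries are of bulk RNA, and the sources used here do not say whether the letters stand for separate cultures, so each p-value measures only the spread between these libraries. Totals ran between 14869015 and 17859844 counts per library, and levels below are CPM, the usual depth-scaled counts, with library sizes adjusted by TMM factors.

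Neurotrophins are secreted survival factors that bind a matching Trk receptor tyrosine kinase: BDNF and neurotrophin-4 bind TrkB (Ntrk2), and neurotrophin-3 binds TrkC (Ntrk3). All of them also bind p75 (Ngfr), which has no kinase and works with co-receptors. GDNF family ligands bind a GFRα co-receptor held to the membrane by a lipid anchor, and that pair engages the kinase Ret: GDNF prefers GFRα1, neurturin GFRα2, artemin GFRα3 and persephin GFRα4. In peripheral sensory neurons these receptors mark neurons that depend on different ligands.

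The delivered genes matched the labels. Neurog1 stood at 1080 to 4060 CPM in the 6 Neurog1 libraries and at 0 counts in the 3 Control libraries, and Neurog3 stood at 1240 to 5260 CPM in the 6 Neurog3 libraries and at 1 count over the 3 Control libraries. Both are basic helix-loop-helix factors, a class that binds E-boxes, written CANNTG, and the form most often linked with neurogenins is CAGATG, which reads as CATCTG when it lies on the other strand. Promoter windows from RefSeq (GRCm38.p6, the build called mm10), from 250 bases before to 50 after each annotated start, were at hand for 4 of the 8 members: 1 each for Ntrk2, Ngfr and Gfra1 and 7 for Bdnf, which has many first exons. They are shown because the delivered factors read such letters. The windows below are those of the 3 receptors and, for Bdnf, the 2 windows with CAGATG or with TCACGTCA, the cAMP-response-like letters known from an activity-regulated Bdnf promoter. Capitals mark every CANNTG and the TCACGTCA.

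Ntrk2 (chr13:58806319-58806618, plus strand): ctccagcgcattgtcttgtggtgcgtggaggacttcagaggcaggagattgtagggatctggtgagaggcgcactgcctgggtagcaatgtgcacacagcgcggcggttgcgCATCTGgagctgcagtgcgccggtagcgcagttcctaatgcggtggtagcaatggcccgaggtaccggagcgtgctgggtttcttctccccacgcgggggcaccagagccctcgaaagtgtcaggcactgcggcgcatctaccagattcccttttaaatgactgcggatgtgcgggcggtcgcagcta
Ngfr (chr11:95587649-95587948, minus strand): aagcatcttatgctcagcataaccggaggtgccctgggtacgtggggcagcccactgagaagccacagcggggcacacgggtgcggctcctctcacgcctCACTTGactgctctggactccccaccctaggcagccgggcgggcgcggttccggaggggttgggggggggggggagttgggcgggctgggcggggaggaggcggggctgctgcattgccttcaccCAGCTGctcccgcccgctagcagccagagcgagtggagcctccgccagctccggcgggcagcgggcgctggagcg
Gfra1 (chr19:58455349-58455648, minus strand): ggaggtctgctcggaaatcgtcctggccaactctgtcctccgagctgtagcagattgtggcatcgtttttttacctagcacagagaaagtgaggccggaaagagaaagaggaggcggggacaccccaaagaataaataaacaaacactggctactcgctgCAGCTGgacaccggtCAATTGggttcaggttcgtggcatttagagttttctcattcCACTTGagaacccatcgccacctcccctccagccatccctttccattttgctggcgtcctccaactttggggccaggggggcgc
Bdnf (chr2:109692186-109692485, plus strand): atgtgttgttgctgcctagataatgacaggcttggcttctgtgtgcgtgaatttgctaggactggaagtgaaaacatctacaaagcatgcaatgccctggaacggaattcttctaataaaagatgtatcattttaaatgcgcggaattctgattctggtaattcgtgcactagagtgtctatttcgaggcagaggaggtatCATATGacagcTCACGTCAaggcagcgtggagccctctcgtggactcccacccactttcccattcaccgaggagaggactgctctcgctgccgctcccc
Bdnf (chr2:109722671-109722970, plus strand): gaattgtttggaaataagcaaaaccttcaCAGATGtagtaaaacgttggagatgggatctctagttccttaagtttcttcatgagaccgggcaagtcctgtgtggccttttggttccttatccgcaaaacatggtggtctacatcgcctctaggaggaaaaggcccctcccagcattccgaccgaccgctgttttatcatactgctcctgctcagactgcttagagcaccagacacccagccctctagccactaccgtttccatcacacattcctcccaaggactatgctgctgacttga

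The Ntrk2 window held a single CANNTG, the CATCTG whose first base lies at -138 from the start. Ngfr held CACTTG at -150 and CAGCTG at -25, and Gfra1 held CAGCTG at -90, CAATTG at -75 and CACTTG at -34. Among the Bdnf windows, 1 had CAGATG, at -221, and another had CATATG at -49 followed by TCACGTCA at -38. These letters are common: over 32851 RefSeq windows of the same length, both strands read, 72.3% held a CANNTG, 17.2% held CAGATG or CATCTG and 16.3% held CAGCTG, which is a form of CANNTG. TCACGTCA or its complement TGACGTGA stood in 0.441% of them. The full palindrome TGACGTCA, present in 1.79% of all windows, was in none of the 10 member windows. On mm10, Ntrk2 lies on chromosome 13 (58806569 to 59133970, plus strand), Ngfr on chromosome 11 (95568818 to 95587735, minus strand), Gfra1 on chromosome 19 (58235604 to 58455909, minus strand) and Bdnf on chromosome 2 (109674700 to 109727007, plus strand). Ntrk3 lies on chromosome 7 (78175959 to 78738012, minus strand), Ret on chromosome 6 (118151745 to 118197718, minus strand) and Gfra2 on chromosome 14 (70890120 to 70979838, plus strand). A match describes the letters of the window and says nothing of binding.

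At day 13 the receptors were higher in the induced cultures. With Neurog1, 7 of 8 members rose and 1 fell against Control, where 32.5% of all tested genes were called higher and 26.8% lower (edgeR quasi-likelihood test, Benjamini-Hochberg adjusted p under 0.05 over all genes). With Neurog3, 7 rose and 1 fell, against 31.2% of tested genes higher and 26.4% lower. The same 7 receptors rose with both factors, and Bdnf, the ligand, was the member that fell in both. The median log2 fold change over the 8 members was 4.41 with Neurog1 and 4.14 with Neurog3, beside 0.10 over all tested genes in each comparison. Scaling by library totals in place of TMM moved the median of all genes to 0.40 in each and the calls to 6757 higher and 3282 lower with Neurog1, beside 5484 and 4524 with TMM. With Neurog3 they were 6664 higher and 3208 lower, beside 5257 and 4461. Each of the 16 member calls at day 13 kept its direction under that scaling. Both comparisons share the Control libraries, so their values stand side by side here and are not counted as 2 separate results. In bulk RNA, fewer cells carrying a transcript and less of it per cell cannot be told apart.

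**Figure D1:**
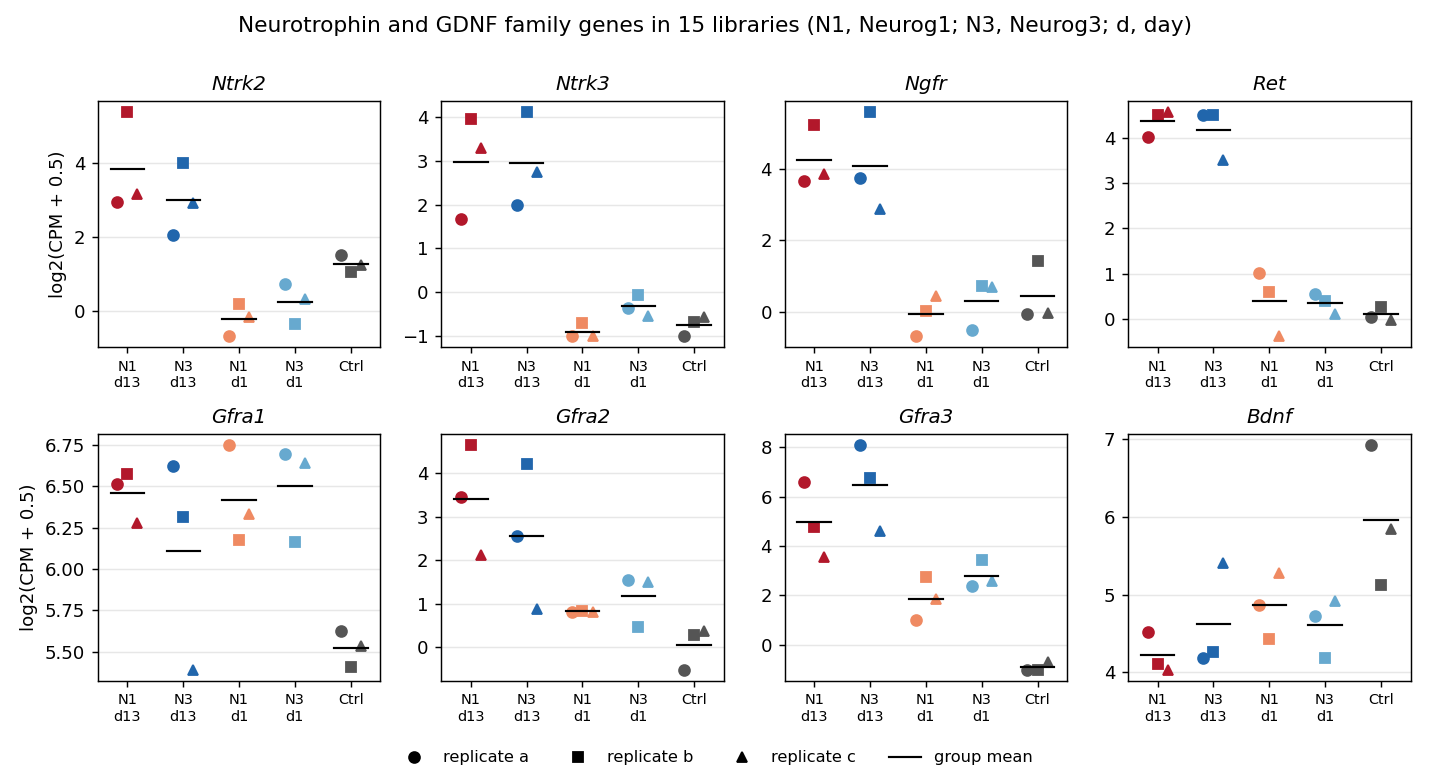
Level of each of the 8 genes in every library, as log2(CPM + 0.5), with the group mean as a bar and the replicate letter as the symbol. N1 is Neurog1, N3 is Neurog3 and Ctrl is Control, and each panel has its own scale. Ret, Ntrk3, Ngfr and Gfra3 at day 13 lie above every day 1 and Control library, while Bdnf has its highest mean in Control.

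**Figure D2:**
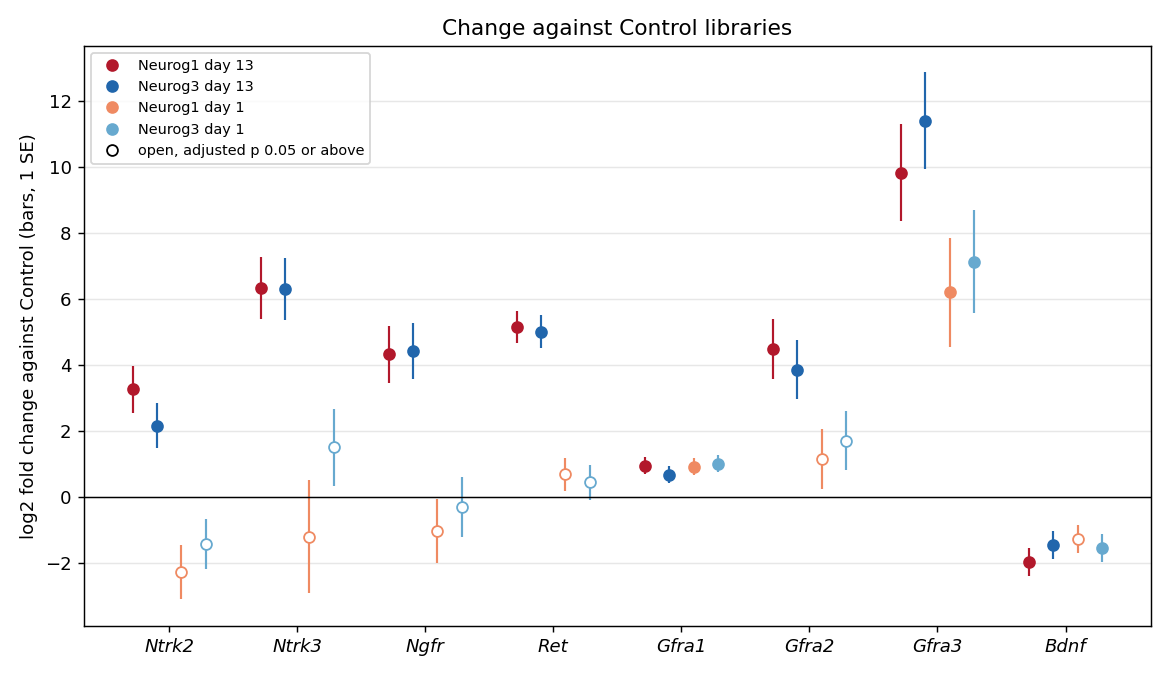
Log2 fold change of each gene against Control in the 4 induced groups, with bars of 1 standard error from the edgeR fit and open symbols where the adjusted p was 0.05 or above. Ret and the GFRα genes are above 0 in all 4 comparisons, and Ntrk2 is above 0 at day 13 and below 0 at day 1.

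Ntrk3, the neurotrophin-3 receptor of proprioceptive neurons, was almost absent before day 13. It had 2.69, 15.1 and 9.25 CPM in the Neurog1 day 13 libraries and 3.50, 16.9 and 6.23 CPM in the Neurog3 day 13 libraries. In Control libraries it had 0, 0.128 and 0.181 CPM, from 5 counts in all. Every day 13 library lay above every other library, and replicate b was the highest with both factors. The fitted log2 fold change against Control was 6.33 ± 0.94 (SE) with Neurog1 (adjusted p = 3.84e-05) and 6.30 ± 0.94 with Neurog3 (adjusted p = 4.11e-05). Without replicate b it was 5.71 with Neurog1 and 5.42 with Neurog3, and without Control c 6.93 and 6.91, each past the threshold. At day 1 it had 2 counts over the Neurog1 libraries and 15 over the Neurog3 libraries, and neither comparison with Control passed the test.

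Ntrk2, the BDNF receptor, followed another course. Its levels were 7.23, 41.0 and 8.49 CPM in Neurog1 day 13 libraries and 3.67, 15.6 and 7.07 CPM in Neurog3 day 13 libraries. At day 1 they were 0.131, 0.647 and 0.399 CPM with Neurog1 and 1.18, 0.290 and 0.759 CPM with Neurog3. Control libraries had 2.38, 1.60 and 1.87 CPM. All 6 day 1 libraries were thus below the lowest Control library and all 6 day 13 libraries above the highest. The rise at day 13 was 3.27 ± 0.71 log2 units with Neurog1 (adjusted p = 0.000991) and 2.17 ± 0.69 with Neurog3 (adjusted p = 0.0132). Replicate b carried much of it: without that library, the Neurog1 value was 1.99 (adjusted p = 0.0115) and the Neurog3 value 1.44 (adjusted p = 0.0986), so the Neurog3 call ended. Over 17 alternatives the Neurog3 adjusted p lay between 0.0025 and 0.0986. The day 1 value was -2.27 ± 0.82 with Neurog1 (adjusted p = 0.0863) and -1.41 ± 0.76 with Neurog3 (adjusted p = 0.268), neither past the threshold. It was past it in 4 of 17 alternative settings with Neurog1 (adjusted p between 0.0140 and 0.326) and in 0 of 17 with Neurog3. Counts per gene do not separate the kinase form of TrkB from the truncated form without a kinase.

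Ngfr, the p75 receptor that every neurotrophin can bind, had 12, 36.5 and 14.0 CPM in Neurog1 day 13 libraries. With Neurog3 at day 13 it had 12.8, 47.5 and 6.91 CPM, against 0.463, 2.18 and 0.482 CPM in Control libraries. Replicate b stood out on both sides, as the highest library of each day 13 group and of Control. The log2 fold change was 4.32 ± 0.85 with Neurog1 (adjusted p = 0.000489) and 4.42 ± 0.85 with Neurog3 (adjusted p = 0.000431). Leaving out a replicate b moved these values between 3.61 and 5.41 with Neurog1 and between 3.21 and 5.52 with Neurog3, and each stayed past the threshold. At day 1 the ranges overlapped those of Control, with 0.131 to 0.865 CPM under Neurog1 and 0.208 to 1.16 CPM under Neurog3.

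Ret, the signalling kinase of the GDNF family, was the most even of the 3 receptor kinases among replicates at day 13. It had 15.9, 22.2 and 23.5 CPM in Neurog1 day 13 libraries and 22.4, 22.3 and 11 CPM in Neurog3 day 13 libraries, against 0.529, 0.704 and 0.482 CPM in Control libraries. The highest library was 1.48 times the lowest with Neurog1 and 2.04 times with Neurog3, beside 5.61 and 4.82 times for Ntrk3. Its log2 fold change against Control was 5.15 ± 0.49 with Neurog1 (adjusted p = 7.33e-07) and 5.01 ± 0.49 with Neurog3 (adjusted p = 9.49e-07). Day 1 libraries had 0.266 to 1.51 CPM with Neurog1 and 0.569 to 0.971 CPM with Neurog3. Those ranges overlapped Control, and the day 1 differences of 0.69 and 0.45 log2 units did not pass the test.

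The co-receptors of Ret did not move alike. Gfra3, the artemin co-receptor of peripheral sensory and sympathetic neurons, went furthest. It had 96.6, 26.9 and 11.2 CPM in Neurog1 day 13 libraries and 270.0, 108 and 23.7 CPM in Neurog3 day 13 libraries. At day 1 it already had 1.51, 6.23 and 3.13 CPM with Neurog1 and 4.65, 10.4 and 5.56 CPM with Neurog3. Control libraries had 2 counts in all, 0, 0 and 0.121 CPM. With so few Control counts a fold is only loosely set, so ratios of summed counts are given with exact 95% intervals that cover counting error only. The ratio to Control was 1020 (283 to 8450) at day 13 with Neurog1 and 3170 (878 to 26200) with Neurog3. At day 1 it was 88.1 (24.0 to 734) with Neurog1 and 166 (45.7 to 1380) with Neurog3. The rise passed the test in all 4 comparisons (adjusted p = 3.79e-05 and 1.06e-05 at day 13, 0.0173 and 0.00511 at day 1, Neurog1 before Neurog3 at each day). The fitted log2 value at day 13 was 9.82 ± 1.46 with Neurog1 and 11.4 ± 1.46 with Neurog3. Without Control c, which holds the Control counts, it was 12.56 and 14.14, and without replicate a 8.57 and 10.36. The day 1 value with Neurog3, 7.12 ± 1.56, was 9.87 without Control c. At day 1 the call with Neurog1 ended when Control a, Control b, Control c or Neurog1 day 1 b was left out (adjusted p between 0.0557 and 0.0707), and over all 17 alternatives adjusted p lay between 0.000115 and 0.245. The day 1 call with Neurog3 ended in 2 of 17 alternatives, limma voom (6.92, adjusted p = 0.0994) and all libraries of letter b left out (6.19, adjusted p = 0.101), with the lowest adjusted p at 5.68e-06.

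Gfra1, the GDNF co-receptor, was expressed in MEFs already and changed least among the receptors. It had 91.0, 94.8 and 77.2 CPM in Neurog1 day 13 libraries and 97.9, 79.0 and 41.5 CPM in Neurog3 day 13 libraries. At day 1 the values were 107, 71.9 and 80.0 CPM with Neurog1 and 103, 71.3 and 99.3 CPM with Neurog3. Control libraries had 48.8, 42.0 and 45.8 CPM. Every induced library but Neurog3 day 13 c, at 41.5 CPM, lay above all Control libraries. The log2 fold change was 0.95 ± 0.26 (adjusted p = 0.00549) and 0.68 ± 0.26 (adjusted p = 0.0344) at day 13 with Neurog1 and with Neurog3, and 0.92 ± 0.26 (adjusted p = 0.0281) and 1.01 ± 0.26 (adjusted p = 0.0172) at day 1. These calls sit near the threshold. At day 1 the Neurog1 call ended without any single Control library or without Neurog1 day 1 a, and the Neurog3 call without Control b, Control c, Neurog3 day 1 a or Neurog3 day 1 c. The Neurog3 day 13 call ended without any single Control library or without replicate a or b of that group, and over all 17 alternatives its log2 value lay between 0.39 and 0.97 (adjusted p between 0.00239 and 0.235).

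Gfra2, the neurturin co-receptor, had 10.4, 24.6 and 3.84 CPM in Neurog1 day 13 libraries and 5.39, 18.2 and 1.35 CPM in Neurog3 day 13 libraries, against 0.198, 0.704 and 0.784 CPM in Control libraries. All 6 day 13 libraries were above Control, over a wide spread: the highest was 6.40 times the lowest with Neurog1 and 13.5 times with Neurog3. The log2 fold change was 4.49 ± 0.90 with Neurog1 (adjusted p = 0.000565) and 3.86 ± 0.89 with Neurog3 (adjusted p = 0.00166). Without replicate b it was 3.61 with Neurog1 (adjusted p = 0.00301) and 2.53 with Neurog3 (adjusted p = 0.0142). Day 1 libraries, at 1.25 to 1.29 CPM with Neurog1 and 0.869 to 2.43 CPM with Neurog3, also lay above Control, and the day 1 differences of 1.15 ± 0.91 and 1.71 ± 0.89 log2 units did not pass the test.

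**Figure D3:**
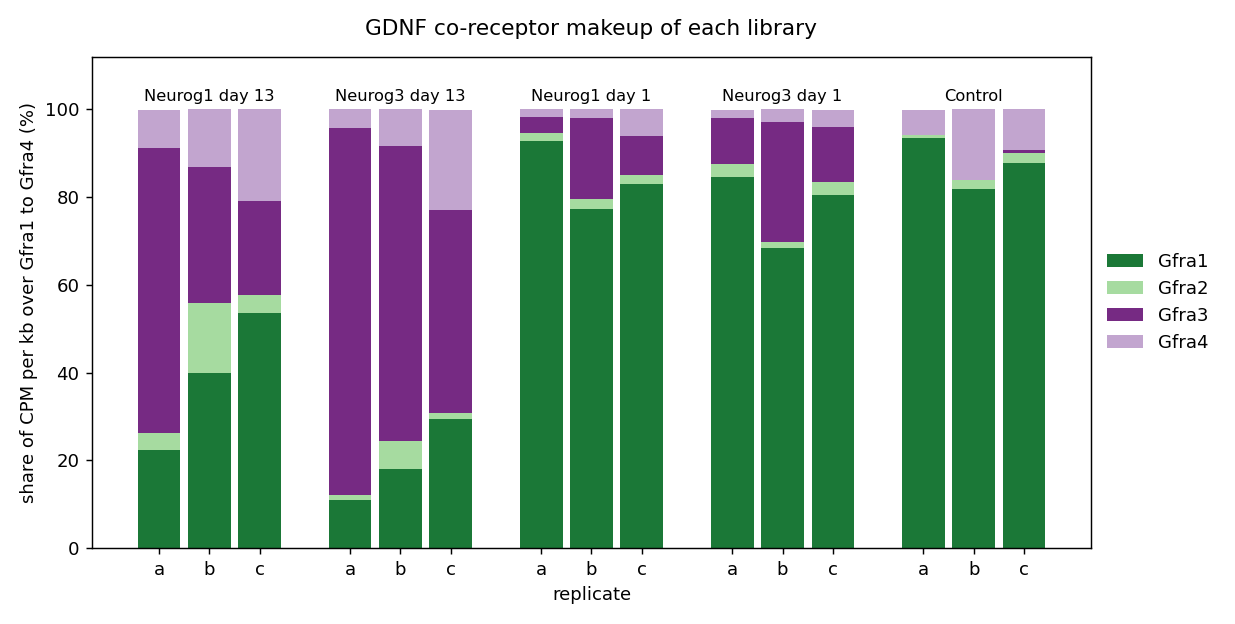
Share of each GFRα co-receptor gene in the summed level of Gfra1 to Gfra4, with each level divided by the length of the gene's merged exons, in every library. Control and day 1 bars are mostly Gfra1, and at day 13 Gfra3 takes 21.4 to 65.0% with Neurog1 and 46.2 to 83.7% with Neurog3.

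Per length of merged exons, Gfra1 made up most of the GFRα set in Control and a smaller share at day 13. Gfra1 held 38.6 ± 15.7% of the summed Gfra1 to Gfra4 level at day 13 with Neurog1 and 19.5 ± 9.28% with Neurog3, against 87.7 ± 5.92% in Control (SD, n = 3 each). Gfra3 held 39.1 ± 22.9% with Neurog1 and 65.7 ± 18.8% with Neurog3 at day 13, against 0.211 ± 0.366% in Control. No day 13 library reached the lowest Control share of Gfra1, 81.8%. At day 1 the share of Gfra1 was 84.4 ± 7.84% with Neurog1 and 77.9 ± 8.43% with Neurog3, ranges that overlapped Control, and that of Gfra3 was 10.3 ± 7.49% and 16.7 ± 9.23%, above Control in all 6 libraries. With the longest protein-coding transcript as the length, Gfra1 held 39.3% and 20.6% at day 13 with Neurog1 and Neurog3, against 85.4% in Control. Gfra3 then held 34.9% and 60.7%, so with Neurog1 the order of the mean shares of Gfra1 and Gfra3 depends on the length used. Gfra4 held 14.2% and 11.8% by merged exons at day 13 with Neurog1 and Neurog3, against 10.4% in Control.

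At day 13 Bdnf fell where its receptors Ntrk2 and Ngfr rose, and at day 1 the fitted values of all 3 lay below Control. Neither receptor was called at day 1. The Ngfr value changed sign in 3 of 16 alternatives with Neurog1 and 3 of 17 with Neurog3. Bdnf had 22.4, 16.8 and 15.9 CPM in Neurog1 day 13 libraries and 17.7, 18.6 and 42.1 CPM in Neurog3 day 13 libraries. At day 1 it had 28.8, 21.1 and 38.4 CPM with Neurog1 and 25.9, 17.7 and 29.8 CPM with Neurog3, against 121, 34.4 and 57.2 CPM in Control libraries. Control a and Control c lay above every induced library, and Control b lay below the highest library of Neurog3 day 13 and of Neurog1 day 1. The difference was -1.95 ± 0.42 log2 units at day 13 with Neurog1 (adjusted p = 0.00107) and -1.44 ± 0.42 with Neurog3 (adjusted p = 0.00803). At day 1 it was -1.53 ± 0.42 with Neurog3 (adjusted p = 0.0236), while the value with Neurog1, -1.27 ± 0.42, missed the threshold (adjusted p = 0.0592). Control a is the high library, and without it the value was -1.34 at day 13 with Neurog1 (adjusted p = 0.00836), -0.83 at day 13 with Neurog3 (adjusted p = 0.0798) and -0.90 at day 1 with Neurog3 (adjusted p = 0.152). The Neurog3 day 1 call also ended without replicate a or b of that group, and the Neurog1 day 1 value passed the threshold without Control b (-1.62, adjusted p = 0.0172). Over 17 alternatives each, adjusted p lay between 0.0172 and 0.491 for Neurog1 day 1, between 0.00358 and 0.228 for Neurog3 day 1 and between 0.00158 and 0.268 for Neurog3 day 13. Reads from its antisense neighbour Gm45346, which covers 14.41% of its exon bases in GENCODE M21, cannot be set apart, since the strand setting of the counts is not given in the sources used here.

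Against Control, fewer members were called at day 1 than at day 13. With Neurog1, 2 of 8 were called higher (Gfra1 and Gfra3) and 0 lower, against 6.76% of tested genes higher and 5.42% lower. With Neurog3, 2 were higher (the same 2) and 1 lower (Bdnf), against 7.17% higher and 5.58% lower. The median over the 8 members was -0.16 log2 units with Neurog1 and 0.73 with Neurog3, beside 0.02 over all tested genes in both.

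Day 13 libraries were also set against day 1 libraries of the same factor, a comparison without Control libraries. The medium was changed on day 2, between these time points, so time and medium cannot be told apart in it. Ntrk2, Ntrk3, Ngfr, Ret, Gfra2 and Gfra3 were called higher at day 13 with Neurog1, so 6 of 8, where 30.5% of tested genes were higher and 27.3% lower, and 0 members were lower. With Neurog3 the same 6 were higher and 0 lower, where 28.9% of tested genes were higher and 26.8% lower. Markers moved in both directions in the same comparison. With Neurog1, 9 of 10 neuron, 7 of 10 fibroblast, 1 of 9 macrophage and 3 of 5 skeletal muscle markers rose. In the same order, 0, 1, 0 and 1 fell. With Neurog3, 8 of 10, 7 of 10, 6 of 9 and 3 of 5 rose, and 0, 3, 0 and 1 fell. Of 7 smooth muscle and pericyte markers, 5 fell with Neurog1 and 6 with Neurog3, and 0 rose. The summed skeletal muscle level was 21.3 to 80.7 CPM at day 13 against 229 to 483 CPM at day 1 with Neurog1. With Neurog3 it was 5.11 to 44.4 CPM against 237 to 535 CPM, so the sum fell with both. Most of the day 1 sum was Chrna1, the marker that fell. Its means were 333 and 331 CPM at day 1 and 1.59 and 2.0 CPM at day 13, Neurog1 before Neurog3. Myod1, Myog and Myh3 were the markers that rose with both. The summed macrophage level was 9.3 to 56.0 CPM at day 13 against 10.2 to 19 CPM at day 1 with Neurog1, and 6.34 to 153 CPM against 8.92 to 12.8 CPM with Neurog3. The part of these cell types in the rise was not tested. Ntrk2 showed a larger difference here than against Control, 5.54 ± 0.83 log2 units with Neurog1 (adjusted p = 4.98e-05) and 3.57 ± 0.76 with Neurog3 (adjusted p = 0.000966). Gfra3 rose by a further 3.62 ± 0.86 with Neurog1 (adjusted p = 0.00219) and 4.28 ± 0.87 with Neurog3 (adjusted p = 0.000722). Leaving out replicate b of day 13 gave 4.27 and 2.85 for Ntrk2, 6.91 and 3.92 for Ntrk3 and 4.65 and 3.53 for Ngfr, Neurog1 before Neurog3, and 2.47 for Gfra2 with Neurog1 (adjusted p = 0.0196). Without replicate a, Gfra3 stood at 2.38 with Neurog1 (adjusted p = 0.0188) and 3.26 with Neurog3 (adjusted p = 0.0038). Without Neurog1 day 1 b, which holds the 2 counts of Ntrk3 in that group, the Neurog1 values were 10.25 for Ntrk3 and 4.26 for Gfra3. Gfra1, at 0.02 ± 0.26 with Neurog1 and -0.33 ± 0.26 with Neurog3, and Bdnf, at -0.68 ± 0.41 and 0.10 ± 0.41, did not pass the test. The Neurog3 value of Gfra2, 2.15 ± 0.79 (adjusted p = 0.0295), was past the threshold in 7 of 17 alternatives and fell to 0.83 (adjusted p = 0.361) without Neurog3 day 13 b. Its call also ended without any single Neurog3 day 1 library, and over all alternatives its adjusted p lay between 0.00543 and 0.62.

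Against each other, the 2 factors gave few differences. At day 1, 0 of 8 members were called between Neurog3 and Neurog1 by edgeR, DESeq2 or limma voom, and 0 had an unadjusted p under 0.05 by edgeR, where 0.00593% of tested genes were called higher and 0.00593% lower. Those day 1 calls were the delivered genes themselves, Neurog3 higher and Neurog1 lower. At day 13 edgeR called 0 members too, and 0 had an unadjusted p under 0.05, with 0.00593% of tested genes higher and 0.0178% lower. The time by factor interaction called 0.0% of tested genes higher and 0.0% lower, and 0 members had an unadjusted p under 0.05. The replicate letters, though, pair the libraries of the 2 factors within a day, and with the letter as a block within the day 1 member, Gfra3, was called higher with Neurog3 at day 13, where 1.45% of tested genes were higher and 2.86% lower.

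**Figure D4:**
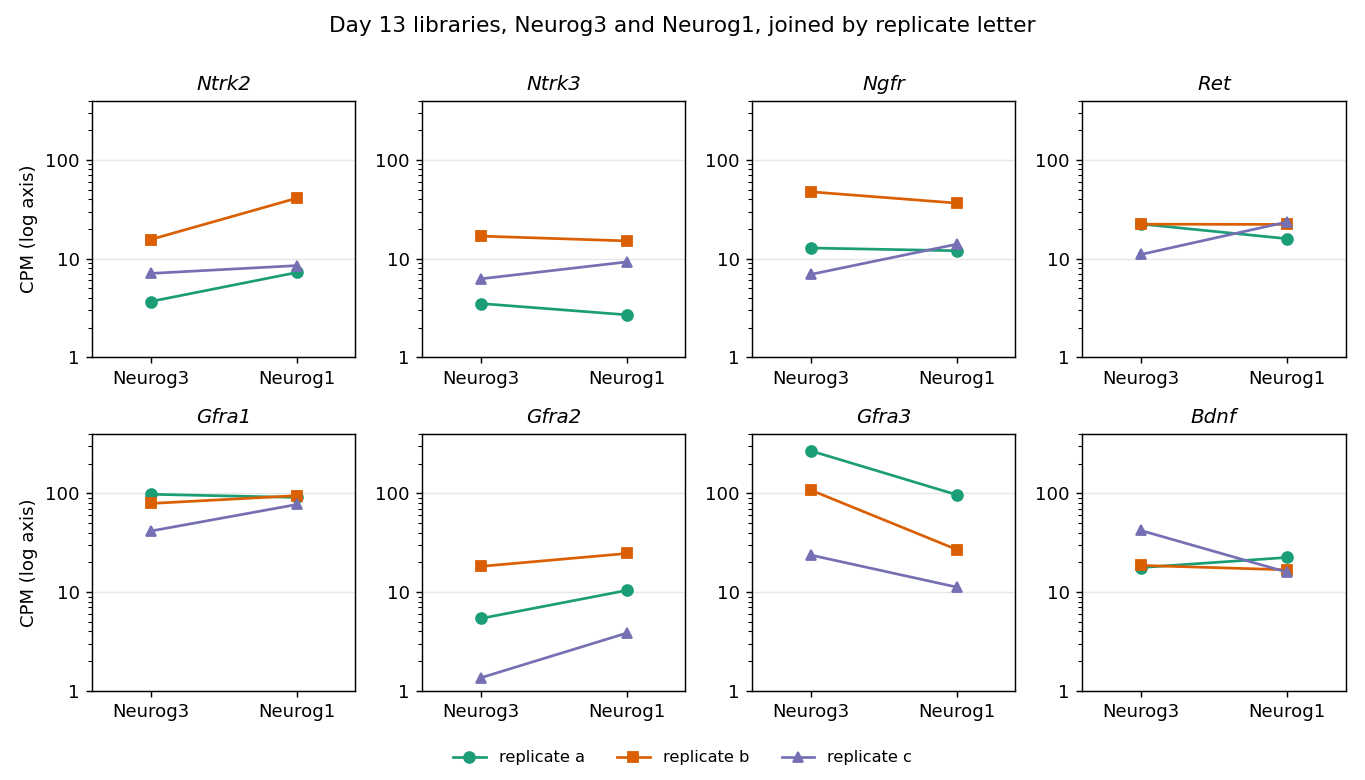
Level in CPM (log axis, the same in all panels) of each gene in the 3 Neurog3 and the 3 Neurog1 libraries of day 13, with libraries of the same replicate letter joined by a line. Gfra3 is higher with Neurog3 in each of the 3 letters, and replicate b is the top line for Ntrk2, Ntrk3, Ngfr and Gfra2.

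Gfra3 is the member on which the factors parted. Its level with Neurog3 was 2.80, 4.01 and 2.12 times that with Neurog1 in letters a, b and c at day 13. The log2 difference was 1.54 ± 0.17 with the block (adjusted p = 0.000692) and 1.58 ± 0.76 without it (adjusted p = 0.931). The ranges of the groups overlapped, 23.7 to 270.0 CPM with Neurog3 and 11.2 to 96.6 CPM with Neurog1. At day 1 the level with Neurog3 was 3.08, 1.66 and 1.78 times that with Neurog1, again higher in 3 of 3 letters, and the log2 difference with the block, 0.97 ± 0.22, did not pass the test (adjusted p = 0.158). Ntrk2 and Gfra2 were lower with Neurog3 in 3 of 3 letters at day 13, by log2 differences of -0.89 ± 0.34 (adjusted p = 0.204) and -0.89 ± 0.29 (adjusted p = 0.111) with the block, neither past the threshold.

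For 5 of the 8 members the same replicate was highest at day 13 with both factors. Replicate b was the highest library of both groups for Ntrk2, Ntrk3, Ngfr and Gfra2, and replicate a was the highest of both for Gfra3. For Gfra3 the highest library was 8.61 times the lowest with Neurog1 and 11.4 times with Neurog3. The delivered Neurog1 stood at 1280, 3140 and 4060 CPM in a, b and c at day 13 and the delivered Neurog3 at 1240, 5260 and 5070 CPM, so replicate a, highest in Gfra3, held the lowest delivered level with both factors. For Ret, Gfra1 and Bdnf the highest replicate differed between the factors. The summed level of 10 macrophage markers was 153, 12.8 and 6.34 CPM in a, b and c with Neurog3 and 56.0, 40.1 and 9.3 CPM with Neurog1, so replicate a was highest and c lowest with both, as for Gfra3. Between the factors that sum was higher with Neurog3 in letter a and lower in b and c, while Gfra3 was higher with Neurog3 in all 3 letters. The parts of the delivered level and of the macrophage markers in these levels were not tested.

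Markers of cell types were read beside these results, at day 13 against Control. Of all tested genes, 32.5% were higher and 26.8% lower there with Neurog1, and 31.2% and 26.4% with Neurog3. All 10 neuron markers rose at day 13 with Neurog1 and 9 of 10 with Neurog3 (all but Nefl, named after its values were seen), and their summed level was 664 to 1580 CPM and 672 to 886 CPM, against 83.7 to 99.3 CPM in Control. Fibroblast markers moved in both directions: 5 of 10 rose and 2 fell with Neurog1, and 6 rose and 3 fell with Neurog3. Their sum was 10900 to 35700 CPM and 10600 to 34200 CPM at day 13, against 2650 to 5080 CPM in Control. Most of it was Col1a1, Col1a2 and Col3a1, with means of 9690, 7900 and 6870 CPM with Neurog1, against 1100, 879 and 427 CPM in Control. With Neurog3 these means were 7350, 5660 and 6230 CPM. Dcn and Lum also rose with both factors. Thy1 and Prrx1 fell with both, from means of 370 and 621 CPM in Control to 25.4 and 215 CPM with Neurog1. Twist1 fell with Neurog3. Ngfr, Ret and the GFRα genes are also known from Schwann cells and neural crest. Of 8 tested markers of those cells, Pou3f1 rose with both factors and Mbp fell with Neurog3. The summed level of the listed markers was 11.4 to 14.5 CPM with Neurog1 and 10.6 to 17.0 CPM with Neurog3 at day 13, against 13.3 to 14.2 CPM in Control, so the ranges overlapped. Sox10, the defining factor of that lineage, had 47 counts over the Neurog1 day 13 libraries and 31 over the Neurog3 day 13 libraries, against 22 over Control. Of 7 tested astrocyte markers 3 rose and 4 fell with each factor, with sums of 159 to 218 CPM and 126 to 173 CPM against 311 to 655 CPM in Control. Most of the Control sum was Gja1, with a mean of 456 CPM there, against 114 and 78.2 CPM at day 13 with Neurog1 and Neurog3. Aldh1l1, Aldoc and Fabp7 fell too, while Slc1a2, Slc1a3 and Aqp4 rose with both factors. Smooth muscle and pericyte markers fell (6 of 7 with each factor), to sums of 210 to 419 CPM with Neurog1 and 285 to 447 CPM with Neurog3, against 6110 to 9650 CPM in Control. Of the other lists, 0 of 9 tested macrophage markers passed the edgeR test against Control with either factor at day 13, and 0 had an unadjusted p under 0.05. Their summed level was 9.3 to 56.0 CPM with Neurog1 and 6.34 to 153 CPM with Neurog3, against 41.9 to 49.5 CPM in Control, and Neurog3 day 13 a stood far above the other libraries. Also at day 13, 1 of 4 endothelial markers rose and 1 fell, and 3 of 3 epithelial markers fell. Of 5 skeletal muscle markers 1 rose with each factor, while 1 fell with Neurog1 and 2 with Neurog3. The part of these cell types in the receptor levels was not tested.

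Further receptors of both families shared the day 13 pattern. Of 7 tested neurotrophin receptors, members included, 6 rose and 0 fell with each factor, and of 7 tested GDNF family receptors 7 rose and 0 fell with each. These counts include the members Ntrk2, Ntrk3 and Ngfr, and Ret, Gfra1, Gfra2 and Gfra3, already given above. Of all tested genes, 32.5% were higher and 26.8% lower with Neurog1, and 31.2% and 26.4% with Neurog3. Sort1 (sortilin, the p75 partner for proneurotrophins) averaged 213 ± 1.95 CPM with Neurog1 and 211 ± 39.1 CPM with Neurog3 at day 13, against 25.3 ± 1.99 CPM in Control (SD, n = 3 each), and it was already called higher at day 1 with each factor. Gfra4, the persephin co-receptor, averaged 12.7 ± 1.09 and 14.1 ± 1.15 CPM at day 13 with Neurog1 and Neurog3, against 2.13 ± 1.05 CPM in Control (SD, n = 3 each), with log2 fold changes of 2.58 ± 0.43 (adjusted p = 0.000115) and 2.72 ± 0.43 (adjusted p = 7.56e-05). Gfral, the GDF15 receptor of the brainstem, had 4 counts over Neurog1 day 13 libraries, 0 over Neurog3 day 13 libraries and 1 over Control libraries. Ncam1 and Sdc3, both known as alternative GDNF receptors, rose by 1.12 ± 0.34 and 1.55 ± 0.33 with Neurog1 (adjusted p = 0.0105 and 0.000943) and by 1.08 ± 0.34 and 1.23 ± 0.33 with Neurog3 (adjusted p = 0.0137 and 0.00485).

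Among 3 tested neurotrophins 0 rose and 1 fell, Bdnf, at day 13 with each factor. Among the 5 GDNF family ligands (Gdf15 included) 3 rose and 1 fell with Neurog1 and 2 rose and 1 fell with Neurog3. The shares over all tested genes were 32.5% higher and 26.8% lower with Neurog1, and 31.2% and 26.4% with Neurog3. Gdnf, the GFRα1 ligand, had 18.4, 13.5 and 8.99 CPM with Neurog1 and 8.44, 14.8 and 11.7 CPM with Neurog3 at day 13, against 1.98, 2.05 and 2.35 CPM in Control. It rose in all 4 comparisons with Control, by 2.67 ± 0.34 and 2.45 ± 0.34 at day 13 (adjusted p = 1.16e-05 and 2.57e-05) and by 2.59 ± 0.34 and 2.82 ± 0.35 at day 1 (adjusted p = 0.000109 and 6.05e-05), Neurog1 before Neurog3. Nrtn (neurturin) averaged 8.90 ± 4.62 and 5.0 ± 0.93 CPM at day 13 with Neurog1 and Neurog3, against 1.09 ± 1.07 CPM in Control (SD, n = 3 each), and was called higher with both (adjusted p = 0.00152 and 0.0119). Artn (artemin), the ligand of the co-receptor that rose most, was not called at day 13 (-0.17 ± 0.61 with Neurog1 and -0.22 ± 0.62 with Neurog3). Ntf3 (neurotrophin-3), Ntf5 (neurotrophin-4) and, with Neurog3, Pspn (persephin) did not pass the test at day 13 either, while Pspn with Neurog1 did, on 30 counts against 6 in Control.

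**Figure D5:**
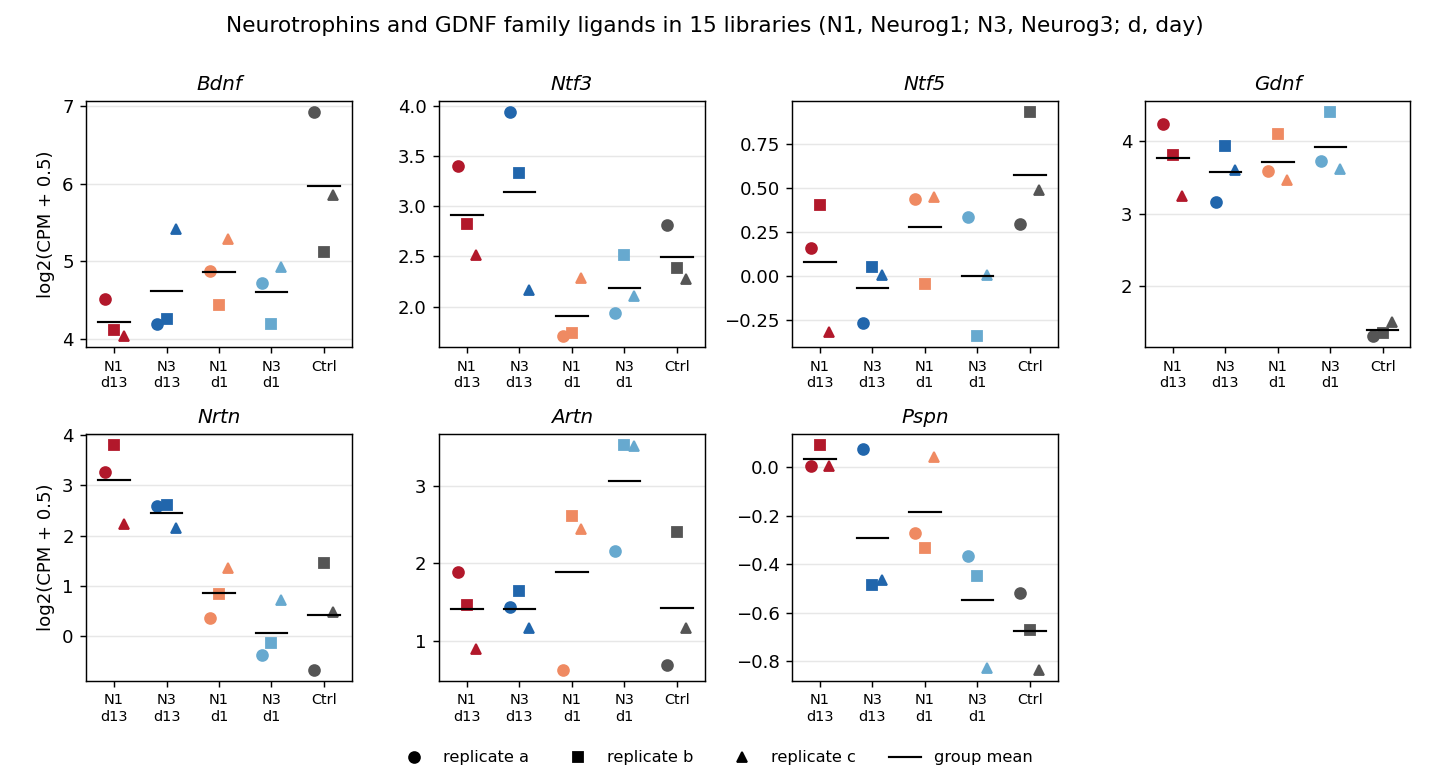
Level of 3 neurotrophins and 4 GDNF family ligands in every library, as log2(CPM + 0.5), with group means as bars and replicate letters as symbols. Gdnf lies above Control in all 12 induced libraries.

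Genes that process or hold back these signals moved in both directions. Their counts, and those of the downstream lists, stand beside 32.5% of all tested genes higher and 26.8% lower with Neurog1, and 31.2% and 26.4% with Neurog3, and several lists lie near these shares. Of 6 tested processing genes 4 rose and 1 fell with each factor: Pcsk2, a prohormone convertase of neuroendocrine cells, had 1670 counts over Neurog1 day 13 libraries and 2418 over Neurog3 day 13 libraries against 1 over Control. Serpini1 (neuroserpin, the tPA inhibitor) rose by 4.79 ± 0.55 and 4.64 ± 0.55 log2 units with Neurog1 and Neurog3 (adjusted p = 4.64e-06 and 6.09e-06), and Plat, which encodes tPA, fell by 1.4 and 1.63 (adjusted p = 0.00162 and 0.000586). Among 14 co-receptors and adaptors of p75, 6 rose and 5 fell with Neurog1 and 6 rose and 6 fell with Neurog3. Lingo1, which joins p75 in the Nogo receptor complex, was at 81.7 ± 24.0 and 77.6 ± 37.0 CPM at day 13 with Neurog1 and Neurog3, against 2.14 ± 0.323 CPM in Control (SD, n = 3 each). Nradd, a death-domain relative of p75, fell by 2.45 and 2.84 (adjusted p = 1.42e-06 and 4.98e-07), and Bex3, a p75 death-domain interactor, by 1.05 and 1.2 (adjusted p = 0.000282 and 8.75e-05). Of 9 genes known to restrain receptor kinases, 6 rose and 1 fell with Neurog1 and 6 rose and 0 fell with Neurog3. Ptprs, a receptor phosphatase, was highest among them by fold, at 3.11 ± 0.39 and 3.33 ± 0.39 (adjusted p = 9.54e-06 and 5.64e-06).

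Downstream, 13 of 23 tested adaptor genes of Trk and Ret rose and 4 fell with Neurog1, and 10 rose and 3 fell with Neurog3. Gab1 rose by 1.92 ± 0.22 and 1.83 ± 0.22 and Frs3, a Trk docking protein, by 1.95 ± 0.29 and 1.84 ± 0.29, Neurog1 before Neurog3, while Dok1 fell by 2.92 and 3.19. Of 17 genes known to respond to ERK signalling, 3 rose and 4 fell with Neurog1 and 2 rose and 9 fell with Neurog3. Etv4 averaged 1.07 ± 0.0612 CPM with Neurog1 and 0.716 ± 0.309 CPM with Neurog3 at day 13, against 35.0 ± 9.68 CPM in Control (SD, n = 3 each), and Dusp5 and Dusp6 fell too. Spry1, a feedback inhibitor of receptor kinases, rose by 2.79 ± 0.28 log2 units with Neurog1 (adjusted p = 1.31e-06) and by 2.87 ± 0.28 with Neurog3 (adjusted p = 1.02e-06), and Fos was called higher with both. Members of this list thus moved in opposite directions in the same libraries. Among 7 tested regulators of receptor choice in peripheral neurons, 2 rose and 2 fell with Neurog1 and 1 rose and 3 fell with Neurog3. Pou4f1 (Brn3a), a sensory neuron factor, had 816 counts over Neurog1 day 13 libraries and 601 over Neurog3 day 13 libraries against 1 over Control. Runx3, which sustains Ntrk3 in proprioceptive neurons, and Runx1, which sustains Ret in nociceptors, fell with both factors. Runx3, named after its values were seen since it was under 5 CPM, had 1 count over Neurog1 day 13 libraries and 6 over Neurog3 day 13 libraries, against 72 over Control, and Runx1 fell by 1.44 and 1.94 log2 units (adjusted p = 0.000373 and 3.32e-05).

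The members' levels over the 15 libraries were set beside those of 13175 other genes, by Pearson's r of log2(CPM + 0.5), as a description in which the group means carry most of the likeness. Nearest to Ret were Lsamp, Cplx1 and Sez6l2 (r = 0.989 for each), to Ntrk3 Cacng2 and Irs4 (0.988 each), to Ngfr Trappc9 (0.980), and to Ntrk2 Frmpd4 (0.965). Gfra3 lay closest to Tmem114 (0.971) and Gfra2 to Maz (0.958), while Gfra1 had no gene above 0.884 (Chrm3) and Bdnf none above 0.924 (Map4k5). Among the members themselves r was 0.95 for Ntrk3 and Ngfr and 0.94 for Ntrk3 and Ret, -0.03 for Ntrk2 and Gfra1, and -0.69 for Gfra3 and Bdnf.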

How the data were processed

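Gene counts of 15 polyA libraries were deposited by the authors in a single table, with no normalization. The submitters' processing notes name CASAVA, HISAT2, featureCounts and mm10; their versions, the strand setting and the annotation were not stated. Of 43432 IDs, 42462 were paired with symbols through GENCODE M21, and the 970 others held 0.142% of counts.

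edgeR 4.0.16 (R 4.3.3) fitted all 5 groups with TMM scaling, its filter on low counts and robust quasi-likelihood tests, and p-values were adjusted by Benjamini and Hochberg over 16872 genes. DESeq2 1.42.0, limma 3.58.1 (voom), no filter, a filter of 1 CPM in 3 libraries, other scalings, the compared groups alone, left-out libraries and a replicate block were alternatives. The scripts were tested on simulated data.

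Deviations of libraries with the same letter correlated between the factors (0.325 to 0.539 at day 1, 0.521 to 0.58 at day 13), so letters pair the factors within a day. Not every pair did so between days (0.016 to 0.242 within a factor, lowest -0.037 across factors) or with Control.

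Members and lists were chosen with earlier results of these data known. Some genes of the lists are not reported here. Named besides members were Gfra4, Gfral, the ligands, and in each list up to 3 called genes with the largest change in each direction at day 13, with at least 5 CPM in the higher group. Intervals are exact at 95% and cover counting error only.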

Additional observations from a re-analysis of the deposited data

Results flagged for a closer look

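Gfra3 was singled out because its level differed between the 2 factors at day 13 once libraries of the same letter were paired: the log2 difference, Neurog3 minus Neurog1, was 1.54 ± 0.17 (SE; edgeR with the replicate block within day, adjusted p = 0.000692). It was higher with Neurog3 in 3 of 3 letters. Without the block the difference was 1.58 ± 0.76 (adjusted p = 0.931). Over its 18 alternatives it was called in 1, with log2 values between 0.56 and 2.81 and adjusted p between 0.000692 and 1.0.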

How the results depend on the processing

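No member value changed direction past the threshold. The number of members called at day 1 moved most. With Neurog1, 2 members were called against Control, beside 1 without a filter, 4 by DESeq2, 1 by limma voom and 4 with the replicate block. Leaving out 1 library gave 0 to 2, and leaving out all libraries of letter a, b or c, an alternative chosen after seeing the data, gave 1 each. With Neurog3, 3 members were called, beside 1 to 2 with 1 library left out and 1 each without a letter. At day 13 against Control, leaving out 1 library gave 8 each time with Neurog1 and 6 to 8 with Neurog3, and leaving out all libraries of a letter gave 7 to 8 and 6 to 7. For day 13 against day 1, leaving out 1 library or a letter gave 6 to 6 with Neurog1 and 5 to 6 with Neurog3, and for each comparison of the factors, the interaction included, 0 to 0. Between the factors at day 13 the replicate block within day called 1 member in place of 0. With the replicate block over all libraries, the calls gained were Ntrk2 (adjusted p = 0.0408) and Bdnf (adjusted p = 0.0279) at day 1 with Neurog1. The call of Gfra2 at day 13 against day 1 with Neurog3 was lost (1.62, adjusted p = 0.0791). Between the factors at day 13 that block called 0 members, and Gfra3 was gained only with the block within day. Deviations of same-letter libraries of day 1 and Control correlated at 0.051 to 0.364 with Neurog1 and 0.056 to 0.321 with Neurog3. Unlike letters gave -0.371 to 0.049 and -0.279 to 0.068, so pairing there has some support, weak in letter c. Between day 13 and Control the same letters gave -0.145 to -0.033 and -0.146 to -0.071, so the block has no support from pairing there. Between days of 1 factor they gave 0.016 to 0.072 with Neurog1 and 0.065 to 0.242 with Neurog3, weak support at most. Over single members, 44 of the values with libraries left out were no longer past the threshold, 2 newly passed it and 650 did neither. Over the other alternatives these numbers were 12, 7 and 577. Low counts of Ntrk3 and Gfra3 in Control limit how closely their folds are known.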
